A study of Mus musculus with 8 samples.

Results

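The collagen chain genes of SN4741 cells were examined in single-cell transcriptomes from cultures at 37 °C and 39 °C. The members were all genes of the deposited feature lists whose symbol has the form of a collagen chain (Col, a type number, a, and a chain number), which gave 44 of 31053 genes. SN4741 is a mouse neural precursor line, described as clonal and taken from embryonic substantia nigra, in which a tyrosine hydroxylase promoter drives a temperature-sensitive SV40 T antigen. All libraries came from this wild-type-labelled line and share that transgene. The study found the line polyploid with an unstable karyotype, so gene copy number can differ from cell to cell. The 37 °C group (4 libraries) grew at the permissive temperature in medium with 10% fetal bovine serum. The 39 °C group (4 libraries) was moved 24 hours after passage to the non-permissive temperature in medium with 0.5% serum for 48 hours, the treatment used to induce differentiation. Temperature and serum changed together and cannot be told apart, so "39 °C" stands for both throughout.

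Collagens are extracellular matrix proteins built from α chains that wind around each other in a helix, and most types need fixed chains in fixed proportions. Fibrillar collagens (types I, II, III, V, XI, XXIV and XXVII) form the tension-bearing fibrils of connective tissue, type IV chains form the sheet-like network of basement membranes, and multiplexins (types XV and XVIII) sit in or beside basement membranes. The remaining classes are the FACITs, which attach to fibrils or are related to chains that do, the short-chain network formers (types VIII and X), the beaded filaments of type VI, the anchoring fibrils of type VII, and chains that span the cell membrane. In the brain, type IV and XVIII collagens lie in vascular and pial basement membranes, while type I and III collagens belong mainly to meninges and vessel walls.

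After filtering there were 8550 cells at 37 °C and 9801 at 39 °C. Library totals lay between 17166686 and 29633818 UMIs (a UMI, or unique molecular identifier, marks 1 captured transcript). Median UMIs per cell ranged from 9839 to 15413 at 37 °C and from 6676 to 16665 at 39 °C. No library pair shared more than 5 cell barcodes, and within a temperature no library repeated another (chi-square of at least 2.74 per degree of freedom for every pair). The labels do not say whether the 4 replicates were separate cultures, so p-values measure the spread between these libraries, which may be technical. Cells assigned to G1 by cell-cycle scoring made up 20.6% to 28.7% of a library at 37 °C and 82.5% to 85.4% at 39 °C, a difference that accompanies every comparison below.

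The labelled cell type was checked against marker lists. Of 9 neural progenitor markers, Nes, Sox2 and Vim were over 10 CPM (counts per 1000000 UMIs) and the other 6 were under 1 CPM at both temperatures, with Hes5 at 0. The summed list held 5638 to 6013 CPM at 37 °C and 5191 to 5803 CPM at 39 °C, with overlap, and was mostly Vim (means of 5337 and 5225 CPM). Mean Nes was lower at 39 °C (462 to 110 CPM) and mean Sox2 higher (54.8 to 77.4 CPM). Of 10 fibroblast markers, Pdgfrb, Twist1, Prrx1 and Fn1 were over 10 CPM, while Dcn, Lum and Thy1 were near 0 and Fap was at 0. The summed fibroblast list held 569 to 588 CPM at 37 °C and 596 to 630 CPM at 39 °C, so no library at 39 °C was below those at 37 °C. Within that sum the means of Fn1 (226 to 267 CPM) and Twist1 (59.9 to 84.9 CPM) were higher at 39 °C. Those of Prrx1 (214 to 189 CPM) and Pdgfrb (79.7 to 72.4 CPM) were lower. The smooth muscle and pericyte list held 295 to 381 CPM at 37 °C and 58.4 to 73.5 CPM at 39 °C. Its fall was carried by Acta2 (223 to 25.5 CPM) and Tagln (94.5 to 9.77 CPM). Cspg4 went the other way (24.5 to 31.6 CPM), and Kcnj8 was at 0. The chondrocyte and osteoblast list held 33.9 to 38.2 CPM and then 53.6 to 57.4 CPM, with 5 of 8 markers under 1 CPM and Acan and Ibsp at 0. Endothelial markers summed to 0.574 to 1.17 CPM over all libraries, with Cdh5 and Cldn5 at 0. The sums of the blood list were 20.5 to 23.6 CPM and 28.2 to 37.3 CPM (mostly Cd68, with Hbb-bs at 0), those of the glial list 3.20 to 3.63 CPM and 4.93 to 5.62 CPM (Sox10 at 0), and those of the neuronal list 63.1 to 68.1 CPM and 38.1 to 40.1 CPM (Dcx at 0). The part of these lists in the collagen results was not tested.

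To describe the collagen output as a whole, UMIs of the 44 members were summed in each library. They made up 0.315%, 0.305%, 0.314% and 0.306% of all UMIs at 37 °C and 0.240%, 0.233%, 0.236% and 0.233% at 39 °C. The 39 °C libraries were all below the 37 °C libraries, with sums of 3099 ± 50.4 CPM (SD, n = 4) and 2353 ± 33.6 CPM (SD, n = 4). The composition differed as well. Fibrillar chains made up 72.7% to 74.3% of collagen UMIs at 37 °C and 51.6% to 52.7% at 39 °C. The short-chain network, nearly all of it Col8a1, took 8.66% to 10.2% at 37 °C and 20.5% to 22.5% at 39 °C. Multiplexins, nearly all Col18a1, went from 3.22% to 3.55% up to 9.97% to 10.4%, and FACITs from 3.07% to 3.28% up to 6.18% to 6.41%. The type IV basement membrane chains kept a nearly equal share of a smaller total, with 9.29% to 9.46% and 8.83% to 9.35% of collagen UMIs.

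**Figure D1:**
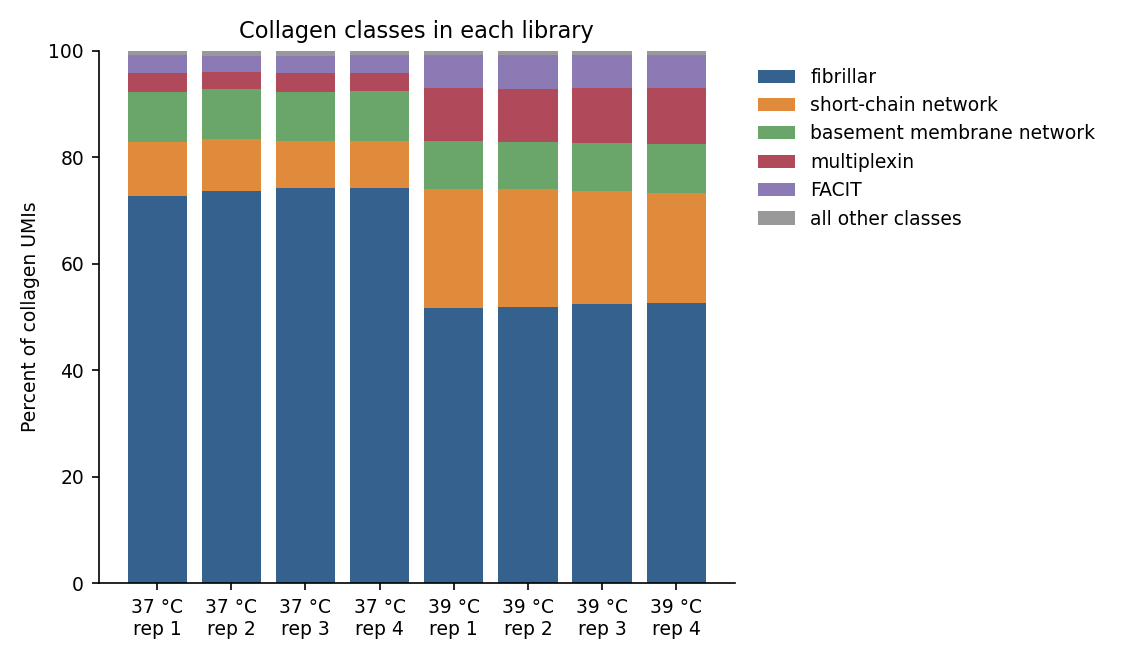
Percent of all collagen UMIs that each class holds (y axis) in each of the 8 libraries (x axis, 1 stacked bar per library). Fibrillar chains hold 72.7% to 74.3% at 37 °C and 51.6% to 52.7% at 39 °C, and the short-chain, multiplexin and FACIT blocks are larger in all 4 libraries at 39 °C.

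A small number of chains held most of the molecules. In 3' counting each UMI stands for 1 transcript whatever its length, so the chains were ordered by their UMIs. Capture and annotation of the 3' end can differ between genes and were not examined. Orders and ratios between chains are therefore those of counted UMIs. At 37 °C the order was Col1a1 (32.8% of collagen UMIs), Col1a2 (21.6%), Col5a2 (15.9%) and Col8a1 (9.33%). At 39 °C it was Col1a1 (24.7%), Col8a1 (21.5%), Col5a2 (16.4%), Col18a1 (10.2%) and then Col1a2 (7.84%), so Col1a2 moved from the second to the fifth place. Of the 44 members, 32 passed the filter of a mean of 1 count per library and were tested. The other 12 held 0 to 6 UMIs over all 8 libraries.

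Each tested member was compared between temperatures with edgeR's quasi-likelihood test on counts summed over all kept cells of a library, with Benjamini-Hochberg adjustment over 15810 genes. In summed libraries, fewer cells with a transcript and fewer molecules per cell cannot be told apart, which is why shares of cells are given further on. At an adjusted p under 0.05, 9 members rose (28.1% of the 32, where 31.5% of all genes tested rose) and 13 fell (40.6%, where 30.5% of all genes fell). The median log2 fold change of the 32 was -0.09, beside 0.02 for all genes tested. With a stricter limit on size (adjusted p under 0.01 and over 1.5 on the log2 scale), 3 members were higher (9.38% against 2.21% of all genes) and 4 were lower (12.5% against 3.62%). The CPM of the 2 temperatures did not overlap for 21 of the 32 (65.6%, beside 56.7% of all genes). By class, 5 of 10 tested fibrillar chains fell and 3 rose, 2 of 5 type IV chains fell and none rose, 3 of 4 type VI chains fell, 4 of 5 FACITs rose and 1 fell, while Col8a1 and Col18a1 rose and Col8a2 fell in the short-chain and multiplexin classes.

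The 2 chains of type I collagen, the main fibril protein of skin and bone, fell by different amounts. Col1a1 (ENSMUSG00000001506, chr11:94936224-94953042, GRCm38) encodes the α1 chain and held 1029, 996, 1055 and 1027 CPM in the 37 °C libraries and 574, 569, 591 and 565 CPM in the 39 °C libraries. Its log2 fold change was -0.84 (SE 0.049, adjusted p = 1.99e-11, edgeR). Col1a2 (chr6:4504814-4541544), the α2 chain, held 670, 686, 666 and 689 CPM at 37 °C against 173, 179, 187 and 188 CPM at 39 °C, a log2 fold change of -1.90 (SE 0.049, adjusted p = 1.54e-16, edgeR). No library of either temperature came near the other group for either gene. Mature type I collagen is mostly a heterotrimer with more α1 than α2. The ratio of Col1a1 to Col1a2 UMIs was 1.54, 1.45, 1.58 and 1.49 at 37 °C and 3.32, 3.18, 3.16 and 3.01 at 39 °C, with means of 1.52 ± 0.0570 and 3.17 ± 0.125 (SD over 4 libraries) and no overlap.

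Col3a1, the single chain of type III collagen, which is found with type I in elastic tissues, was low at 37 °C and close to absent at 39 °C. It held 11.1, 12.7, 12.1 and 11.9 CPM at 37 °C and 0.454, 0.946, 1.59 and 1.04 CPM at 39 °C, with a log2 fold change of -3.48 (SE 0.150, adjusted p = 2.19e-13, edgeR). The 39 °C values rest on 8, 25, 45 and 27 UMIs, and the 4 libraries there differ from each other more than those at 37 °C. Col5a2 lies 24614 bases from Col3a1 on chromosome 1, tail to tail on the opposite strand, and had a smaller change. This α2 chain of type V collagen, which sits inside type I fibrils and limits their width, held 515, 495, 493 and 494 CPM at 37 °C and 386, 381, 380 and 381 CPM at 39 °C (log2 fold change -0.39, SE 0.046, adjusted p = 4.26e-07, edgeR). The ratio of Col3a1 to Col5a2 UMIs averaged 0.0239 ± 0.00169 at 37 °C and 0.00265 ± 0.00124 at 39 °C (SD over 4 libraries), and that of Col3a1 to Col1a1 averaged 0.0116 and 0.00175, and the temperatures did not overlap for either ratio.

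The other type V chains split in direction. Col5a1, the α1 partner of Col5a2, held 70.9, 65.0, 69.2 and 70.2 CPM at 37 °C and 41.6, 44.3, 47.0 and 47.6 CPM at 39 °C (log2 fold change -0.61, SE 0.051, adjusted p = 3.28e-09, edgeR). Col5a3, the α3 chain of a less common type V form, rose a little, from 20.1, 19.8, 16.3 and 18.7 CPM to 23.8, 22.9, 22.7 and 23.7 CPM (log2 fold change 0.31, SE 0.062, adjusted p = 2.18e-04, edgeR). The temperatures did not overlap for either chain. The ratio of Col5a1 to Col5a2 UMIs went from 0.138 ± 0.00484 to 0.118 ± 0.00792 (SD over 4 libraries) without overlap in all cells, and overlapped in G1 cells. Fibrillar chains of cartilage were rare: Col2a1 held 5.04 ± 0.228 CPM (SD, n = 4) and 4.58 ± 0.286 CPM (SD, n = 4) and was not called (log2 fold change -0.14, adjusted p = 0.203, edgeR). Col11a2 rose from 0.491 to 0.868 CPM (adjusted p = 0.00384, edgeR) and Col27a1 from 0.503 to 0.825 CPM (adjusted p = 0.0477, edgeR), while Col11a1 stood at 0.286 and 0.188 CPM without a call. The Col27a1 libraries overlapped, and its call was lost in 10 of 17 alternative settings (adjusted p up to 0.217).

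**Figure D2:**
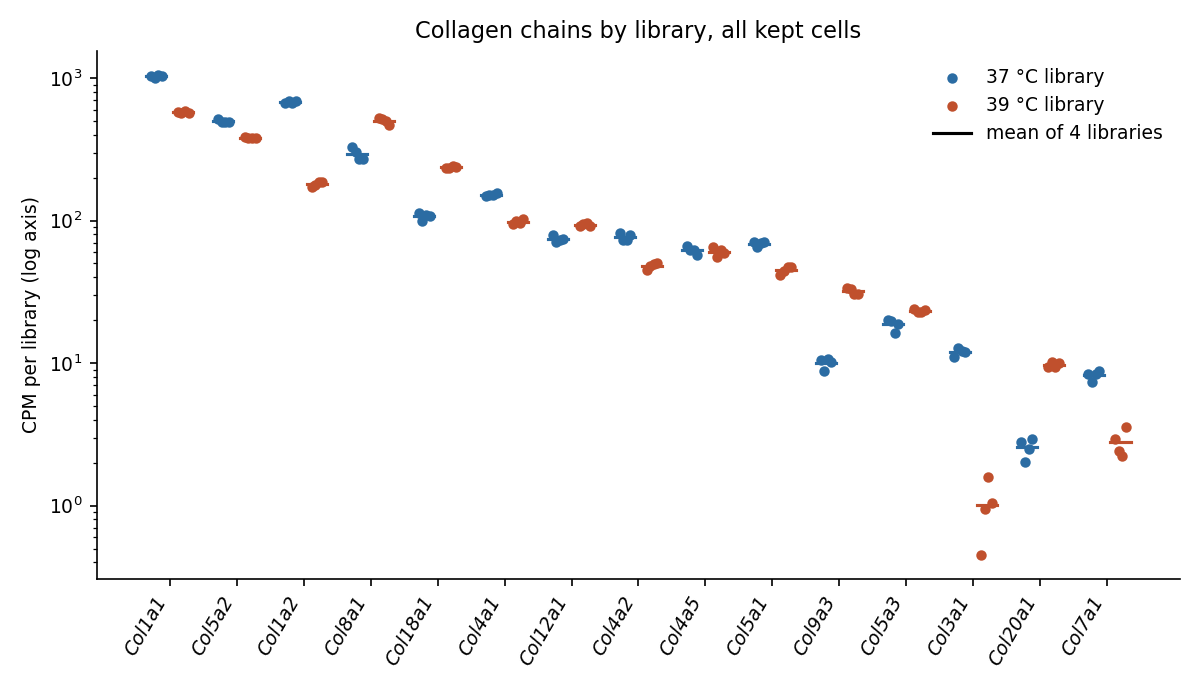
CPM (y axis, log scale) of the 15 collagen chains with a mean of at least 20 CPM, or past the size limit with at least 2 CPM in the higher group, in each library (points, n = 4 per temperature), with the mean of each temperature as a bar. The points of the 2 temperatures are apart for every chain shown except Col4a5, and those of Col3a1 at 39 °C are the most scattered.

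The sequences before the annotated starts of Col1a2 and Col3a1 are shown because these chains had the 2 largest falls among the fibrillar collagens. They are the 250 bases upstream of the RefSeq start (GRCm38.p6, written 5′ to 3′ in the direction of transcription), with letters in capitals where the CCAAT motif, the TATAAA motif, the GGGCGG motif or the TGACTCA motif matches on either strand (no matches overlap in the windows printed). Of 38 such windows for 35 members, 13 (34.2%) held CCAAT, 5 (13.2%) TATAAA, 22 (57.9%) GGGCGG and 1 (2.63%) TGACTCA. Over all 32851 windows of the same length the shares were 33.8%, 12.4%, 32.7% and 4.46%. The Col1a2 window (chr6:4505368-4505617, plus strand) is 62.0% G and C and the Col3a1 window (chr1:45311288-45311537, plus strand) 35.2%. The Col1a2 window lies inside the GENCODE gene (chr6:4504814-4541544), because the RefSeq start used here is downstream of the GENCODE start.
Col1a2: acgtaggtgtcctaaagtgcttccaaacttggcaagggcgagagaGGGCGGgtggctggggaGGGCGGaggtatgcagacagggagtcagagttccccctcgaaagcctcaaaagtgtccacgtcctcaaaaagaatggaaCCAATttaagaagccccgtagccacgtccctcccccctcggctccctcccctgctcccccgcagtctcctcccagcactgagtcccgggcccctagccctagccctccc
Col3a1: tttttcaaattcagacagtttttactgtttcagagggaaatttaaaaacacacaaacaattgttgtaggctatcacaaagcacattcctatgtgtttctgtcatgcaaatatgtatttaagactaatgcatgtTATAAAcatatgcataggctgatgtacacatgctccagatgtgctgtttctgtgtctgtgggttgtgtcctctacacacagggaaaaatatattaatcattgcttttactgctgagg
Col1a2 has 1 CCAAT that begins 109 bases before the start and 2 GGGCGG, and Col3a1 has 1 TATAAA that begins 117 bases before the start. A match is a description of these letters, not a binding site.

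Of the basement membrane network chains, the most abundant pair fell and the others had no call. Col4a1 and Col4a2, which join in the most widespread type IV network, lie head to head on chromosome 8 (chr8:11198423-11312826 and chr8:11312805-11449287), and their annotated ends overlap by 22 bases. Col4a1 held 149, 152, 152 and 156 CPM at 37 °C and 94.9, 99.1, 96.2 and 103 CPM at 39 °C (log2 fold change -0.63, SE 0.045, adjusted p = 2.88e-10, edgeR). Col4a2 held 82.2, 73.5, 72.5 and 78.7 CPM and then 44.9, 47.7, 49.8 and 50.4 CPM (log2 fold change -0.67, SE 0.052, adjusted p = 1.28e-09, edgeR). Both were lower in every library at 39 °C. The ratio of Col4a1 to Col4a2 UMIs was 1.99 ± 0.126 (SD, n = 4) and 2.04 ± 0.0787 (SD, n = 4), and the 2 temperatures overlapped, unlike the ratio of the type I chains.

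Col4a5, whose product joins other type IV networks in kidney and eye, stayed within the spread of the libraries. It held 66.3, 61.7, 62.6 and 57.5 CPM at 37 °C and 65.3, 55.9, 61.7 and 59.5 CPM at 39 °C (log2 fold change -0.04, SE 0.054, adjusted p = 0.583, edgeR). Col4a6, its head-to-head neighbour 1308 bases away on chromosome X, was at 2.01 and 2.32 CPM without a call, Col4a4 at 0.374 and 0.373 CPM, and Col4a3 had 4 UMIs in all libraries together.

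Col18a1 rose in all 4 libraries at 39 °C. It encodes the core of a heparan sulfate proteoglycan of basement membranes whose C-terminal piece is endostatin. It held 113, 99.0, 109 and 107 CPM at 37 °C and 232, 233, 243 and 238 CPM at 39 °C, a 2.21-fold difference (log2 fold change 1.14, SE 0.049, adjusted p = 1.73e-13, edgeR). Its relative Col15a1 was at 0.865 and 0.620 CPM and was not called (adjusted p = 0.116, edgeR). The ratio of Col15a1 to Col18a1 was 0.00809 ± 0.00122 (SD, n = 4) and 0.00261 ± 7.47e-04 (SD, n = 4). Slc19a1 overlaps Col18a1 on the other strand. Of the 44 members, 11 overlap a gene on the opposite strand, among them Col9a3 (Tcfl5), Col12a1 (4930562D21Rik) and Col4a1 and Col4a2 (each other). The strand setting of the counting is not given in the sources used here, so reads of such pairs may not be told apart.

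Col8a1, a short chain that forms hexagonal networks in vessel walls and under corneal cells, was the second most abundant collagen at 39 °C. It held 326, 304, 272 and 269 CPM at 37 °C and 525, 515, 496 and 471 CPM at 39 °C, a 1.71-fold difference (log2 fold change 0.78, SE 0.062, adjusted p = 1.63e-09, edgeR). All 4 libraries at 39 °C were above all 4 at 37 °C. Col8a2, the other chain of type VIII, fell from 0.994, 0.814, 0.806 and 0.843 CPM to 0.340, 0.303, 0.248 and 0.270 CPM (log2 fold change -1.59, SE 0.259, adjusted p = 2.51e-05, edgeR). Type VIII chains thus moved in opposite directions, with Col8a2 under 1 CPM in every library. Col10a1, the chain of growth plate cartilage, was at 0.0345 and 0.0571 CPM.

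The windows before the starts of Col8a1 and Col18a1, the 2 most abundant chains that rose, are shown for comparison with those of the falling fibrillar chains, with the same motifs in capitals. Col8a1 lies at chr16:57754738-57754987 (minus strand). Col18a1 has 2 annotated starts, at chr10:77166531-77166780 (start 1) and chr10:77113706-77113955 (start 2), both on the minus strand, and 3' counts do not tell which was used.
Col8a1: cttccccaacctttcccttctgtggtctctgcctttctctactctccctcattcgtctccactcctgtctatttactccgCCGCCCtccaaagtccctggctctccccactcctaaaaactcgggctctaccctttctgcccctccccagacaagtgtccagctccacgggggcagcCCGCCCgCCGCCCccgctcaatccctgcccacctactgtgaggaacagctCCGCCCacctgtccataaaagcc
Col18a1 start 1: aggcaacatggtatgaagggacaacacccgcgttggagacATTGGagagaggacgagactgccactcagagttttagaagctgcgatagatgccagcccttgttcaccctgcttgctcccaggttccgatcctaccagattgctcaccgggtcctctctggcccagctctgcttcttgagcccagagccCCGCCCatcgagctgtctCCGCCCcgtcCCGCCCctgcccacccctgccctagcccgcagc
Col18a1 start 2: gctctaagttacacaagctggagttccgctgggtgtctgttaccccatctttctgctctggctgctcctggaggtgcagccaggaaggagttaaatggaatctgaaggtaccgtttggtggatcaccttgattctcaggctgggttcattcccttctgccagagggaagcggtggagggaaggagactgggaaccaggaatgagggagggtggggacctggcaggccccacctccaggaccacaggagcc
Col8a1 holds 4 matches of GGGCGG, all on the opposite strand, and Col18a1 start 1 holds 3 of them and 1 CCAAT, also on that strand, while start 2 holds none of the 4 motifs. The windows are 60.8%, 62.0% and 57.6% G and C.

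Among the FACITs the rises were the largest of the family. Col9a3, the α3 chain of the type IX collagen that coats cartilage fibrils, held 10.5, 8.80, 10.7 and 10.1 CPM at 37 °C and 33.9, 33.0, 30.6 and 30.4 CPM at 39 °C (3.18-fold, log2 fold change 1.67, SE 0.064, adjusted p = 4.51e-14, edgeR). Its partner chains were nearly missing, with 3 UMIs of Col9a1, all at 39 °C, and 6 of Col9a2, all at 37 °C. Col20a1 rose from 2.78, 2.02, 2.49 and 2.95 CPM to 9.36, 10.1, 9.42 and 9.95 CPM (log2 fold change 1.92, SE 0.100, adjusted p = 3.68e-12, edgeR). Both lie on chromosome 2, and neither had overlapping temperatures. Col12a1, which binds type I fibrils and was the most abundant FACIT, rose from 78.6, 71.0, 73.4 and 74.0 CPM to 91.1, 94.4, 96.9 and 92.0 CPM (log2 fold change 0.33, SE 0.046, adjusted p = 2.82e-06, edgeR). Col16a1 fell from 12.8 to 9.73 CPM (log2 fold change -0.40, adjusted p = 8.19e-04, edgeR). Col22a1, a chain of tissue junctions, was called higher at a level near the floor, with 0.0545 and 0.665 CPM (adjusted p = 9.27e-07, edgeR). Col14a1 had 1 UMI at 37 °C and 4 at 39 °C.

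The anchoring fibril chain and 3 of 4 tested beaded filament chains fell. Col7a1, which fastens epithelial basement membranes to the tissue beneath, held 8.43, 7.36, 8.38 and 8.74 CPM at 37 °C and 2.95, 2.42, 2.23 and 3.59 CPM at 39 °C (log2 fold change -1.57, SE 0.119, adjusted p = 8.52e-10, edgeR). Without 39 °C replicate 3 the change was -1.46 and fell short of the size limit. Of the type VI chains, which build microfilaments around cells, Col6a1 went from 16.4 ± 1.02 CPM to 12.6 ± 0.955 CPM (SD, n = 4; log2 fold change -0.37, adjusted p = 9.55e-05, edgeR), Col6a2 from 3.22 to 2.26 CPM (adjusted p = 0.00290, edgeR) and Col6a3 from 0.712 to 0.371 CPM (adjusted p = 0.00933, edgeR). The ratio of Col6a1 to Col6a2 UMIs was 5.13 ± 0.535 (SD, n = 4) and 5.60 ± 0.226 (SD, n = 4), with overlap. Col6a4 was at 0.0434 and 0.0504 CPM, and Col6a5 and Col6a6 had 2 and 3 UMIs.

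Membrane-spanning and unclassified chains were at the edge of detection. Col23a1 was at 0.142 and 0.149 CPM and Col17a1 at 0.0539 and 0.0758 CPM, both without a call. No UMI of Col13a1 or Col19a1 was found in any library, which allows a level of up to 0.0265 CPM at 37 °C and 0.0308 CPM at 39 °C (3 counts over the pooled libraries, counting error only). Col25a1, Col26a1, Col28a1 and Col24a1 had 1, 2, 2 and 4 UMIs in all libraries together.

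Shares of cells with at least 1 UMI were compared next, to see how widely each chain was detected. Since shares rise with depth, each cell was thinned to 5000 UMIs, which left out 668 of 8550 cells (7.81%) at 37 °C and 1668 of 9801 (17.0%) at 39 °C. By library the part left out was 2.69% to 11.7% at 37 °C and 3.65% to 28.9% at 39 °C. The cultures hold 1 cell line and no cell type that should lack collagens, so the share that free RNA in the droplets gives could not be measured, and its part was not tested. Of the 32 tested members, 8 had a higher share at 39 °C without overlap (25%, beside 23.3% of all genes) and 12 a lower one (37.5%, beside 21.9%).

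A Col1a1 UMI was found in 94.8%, 94.7%, 95.2% and 94.7% of cells at 37 °C and in 81.6%, 80.7%, 81.4% and 81.9% at 39 °C. Its unthinned shares averaged 97.0% and 86.2%. For Col1a2 the shares were 84.3%, 83.5%, 85.0% and 85.7% against 43.3%, 45.1%, 44.9% and 46.2%, the widest gap of any chain in percentage points (unthinned means 89.7% and 56.3%). Col5a2 was detected in 86.6% ± 0.539 (SD, n = 4) and 79.8% ± 1.70 (SD, n = 4) of cells, so at 39 °C nearly as many cells had a Col5a2 UMI as a Col1a1 UMI. The Col1a1 share at 37 °C is close to 100%. Thinned to 2000 UMIs, Col1a1 was found in 78.5% ± 1.12 and 57.1% ± 2.45 of cells and Col1a2 in 62.8% ± 1.12 and 24.2% ± 1.43 (SD, n = 4), without overlap. Col3a1 was detected in 4.08% to 4.82% of cells at 37 °C and 0.282% to 0.562% at 39 °C.

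Col8a1, Col18a1, Col9a3 and Col20a1 were detected in more cells at 39 °C. Col8a1 shares were 61.3%, 58.2%, 56.3% and 56.0% at 37 °C and 78.0%, 76.5%, 75.9% and 75.1% at 39 °C, and Col18a1 shares were 37.8%, 33.3%, 35.7% and 37.9% and then 54.4%, 53.6%, 55.9% and 56.5%. Without thinning these shares averaged 75.9% and 83.6% for Col8a1 and 60.3% and 67.9% for Col18a1, and the temperatures overlapped. Within a phase the Col8a1 gap was smaller, with thinned shares of 71.7% to 76.9% and 78.0% to 79.5% in cells assigned to G1, and 52.9% ± 1.98 and 62.5% ± 5.41 in cells assigned to S or G2M (SD, n = 4), so 18.4 percentage points over all cells went with 3.92 in G1. The Col18a1 shares were 39.4% ± 4.00 and 56.5% ± 1.97 in G1 (SD, n = 4), and neither chain overlapped. Col9a3 went from 4.53% ± 0.495 to 13.8% ± 1.27 (SD, n = 4) and Col20a1 from 1.20% ± 0.384 to 4.56% ± 0.337 (SD, n = 4). Col4a1 went from 50.3% ± 0.730 to 36.2% ± 1.47 (SD, n = 4) and Col4a2 from 30.2% ± 1.32 to 19.7% ± 1.20 (SD, n = 4), while Col4a5 was at 25.2% ± 1.79 and 25.5% ± 1.43 (SD, n = 4). Col12a1 (27.5% and 30.4%) and Col5a3 (7.94% and 10.0%) were higher at 39 °C without overlap only with phases pooled and 5000 UMIs per cell. At 2000 UMIs they averaged 13.0% and 14.1%, and 3.82% and 3.99%, and unthinned 50.8% and 44.9%, and 18.7% and 18.6%, all with overlap. By phase the groups overlapped too, with Col12a1 at 32.7% and 32.1% in G1 and 26.1% and 21.6% in S or G2M, and Col5a3 at 8.72% and 10.2% and then 7.73% and 9.30%.

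**Figure D3:**
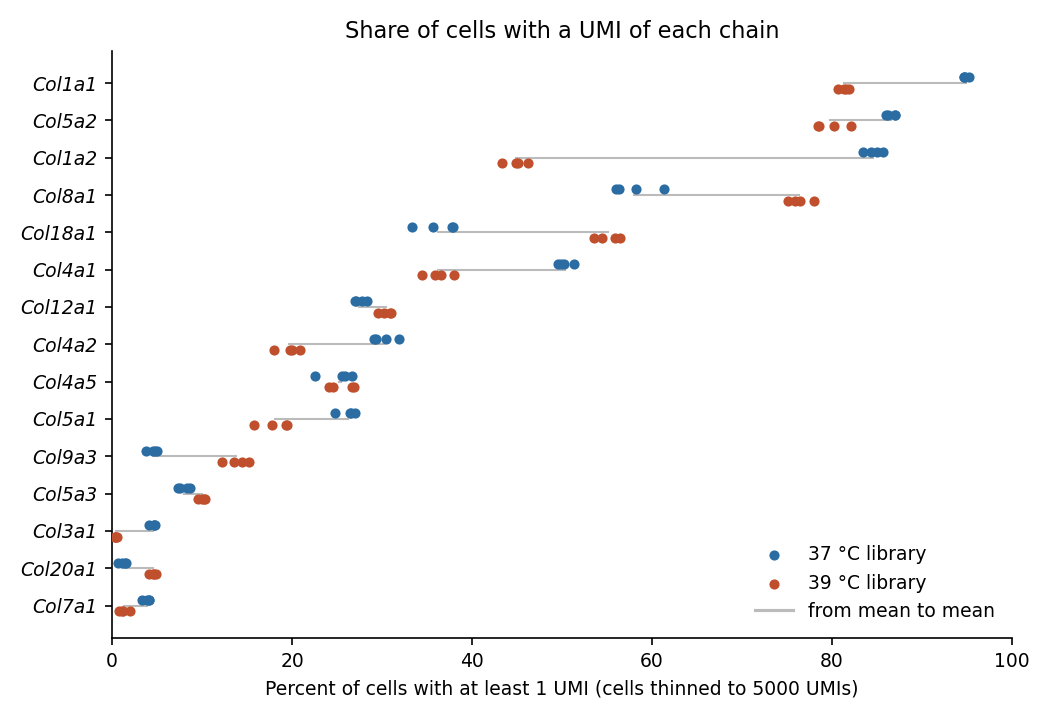
Percent of cells with at least 1 UMI of each of 15 chains (x axis), each cell thinned to 5000 UMIs, with 1 point per library (n = 4 per temperature) and a line from mean to mean. Col1a2 shows the widest shift (84.6% to 44.9%), Col8a1 and Col18a1 shift to the right, and Col4a5 overlaps.

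Nearly every cell held some collagen RNA. After thinning to 5000 UMIs the median cell held 14 collagen UMIs in each 37 °C library and 10 or 11 in the 39 °C libraries, from a median of 6 and 5 different chains. Cells without any collagen UMI numbered at most 5 in a library. The chains differed in how unevenly they were spread over cells. The variance over cells divided by the mean, which is near 1 for counting noise alone, was 2.68 to 3.13 for Col8a1 at 37 °C and 2.51 to 2.68 at 39 °C. It was 2.25 to 2.48 and 2.32 to 2.43 for Col1a1, 1.29 to 1.49 and 1.85 to 1.95 for Col18a1, and 1.03 to 1.11 and 1.08 to 1.17 for Col4a2. For Col1a2 it was 1.99 to 2.20 and 1.90 to 2.08. This ratio grows with the mean, and the share of UMIs in the 10% of cells with the most UMIs of a gene gave another order. At 39 °C those cells held 32.2% to 32.8% of Col8a1 UMIs and 44.3% to 45.9% of Col1a2 UMIs, and for Col18a1 they held 44.8% to 51.8% at 37 °C and 38.6% to 39.8% at 39 °C. This share depends on the mean too and is larger for rarer chains. Mean Col18a1 UMIs per cell were 0.493 to 0.544 at 37 °C and 1.1 to 1.18 at 39 °C. At 39 °C they were 0.835 to 0.932 for Col1a2 and 2.39 to 2.6 for Col8a1. The part of the mean in these shares was not tested.

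Since most cells at 39 °C and few at 37 °C were assigned to G1, the fit was run again on cells assigned to G1 alone (14712 genes tested, 30 members). Here 4 members were higher at 39 °C (13.3%, beside 24.8% of all genes) and 13 were lower (43.3%, beside 22.4%). Over the 30 members the median log2 fold change was -0.23, beside 0.04 for all genes. Of the 22 members called in all cells, 14 were also called in G1 cells. How many of all genes kept their call was not counted. Calls over all genes were fewer in G1 cells too, where 31.5% had been higher and 30.5% lower in all cells. The G1 sums at 37 °C rest on 2058 of 8550 cells. Phase calls also read free RNA, whose part was not tested. Proliferation genes given further on were lower at 39 °C within cells assigned to G1, so assignment to G1 did not make the groups alike in them.

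Of the 9 members that rose in all cells, 5 had no call in G1 cells, and Col8a1 was the most abundant of them. It held 547, 579, 477 and 473 CPM in G1 cells at 37 °C and 570, 559, 544 and 513 CPM at 39 °C, with a log2 fold change of 0.07 (SE 0.064, adjusted p = 0.368, edgeR). The groups overlapped. Col12a1 (0.09, SE 0.051, adjusted p = 0.150) and Col5a3 (0.10, SE 0.078, adjusted p = 0.299) had no call either, nor did Col11a2 (adjusted p = 0.423) and Col27a1 (adjusted p = 0.948). The rises of Col18a1 (0.96, adjusted p = 5.70e-12), Col9a3 (1.41, adjusted p = 1.08e-11) and Col20a1 (1.55, adjusted p = 3.75e-09) were called in G1 cells too. The fibrillar chains that fell had log2 fold changes in G1 cells of -0.94 for Col1a1 (adjusted p = 1.59e-12), -2.01 for Col1a2 (adjusted p = 1.95e-17), -3.86 for Col3a1 (adjusted p = 1.46e-13) and -0.61 for Col5a2 (adjusted p = 1.06e-09). Col6a1 fell from 20.4, 28.1, 21.2 and 22.5 CPM to 11.9, 11.5, 12.8 and 13.1 CPM in G1 cells (-0.89, adjusted p = 5.14e-08), beside -0.37 in all cells. Col4a5 fell slightly (-0.17, SE 0.058, adjusted p = 0.0194), a call that was lost without 37 °C replicate 2 (adjusted p = 0.0658) or without 39 °C replicate 2 (adjusted p = 0.0879). Col11a1 and Col15a1, both under 2 CPM in every library, were called lower in G1 cells with overlapping groups, and lost the call in 7 and 4 of 14 alternative settings (adjusted p up to 0.157 and 0.230).

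**Figure D4:**
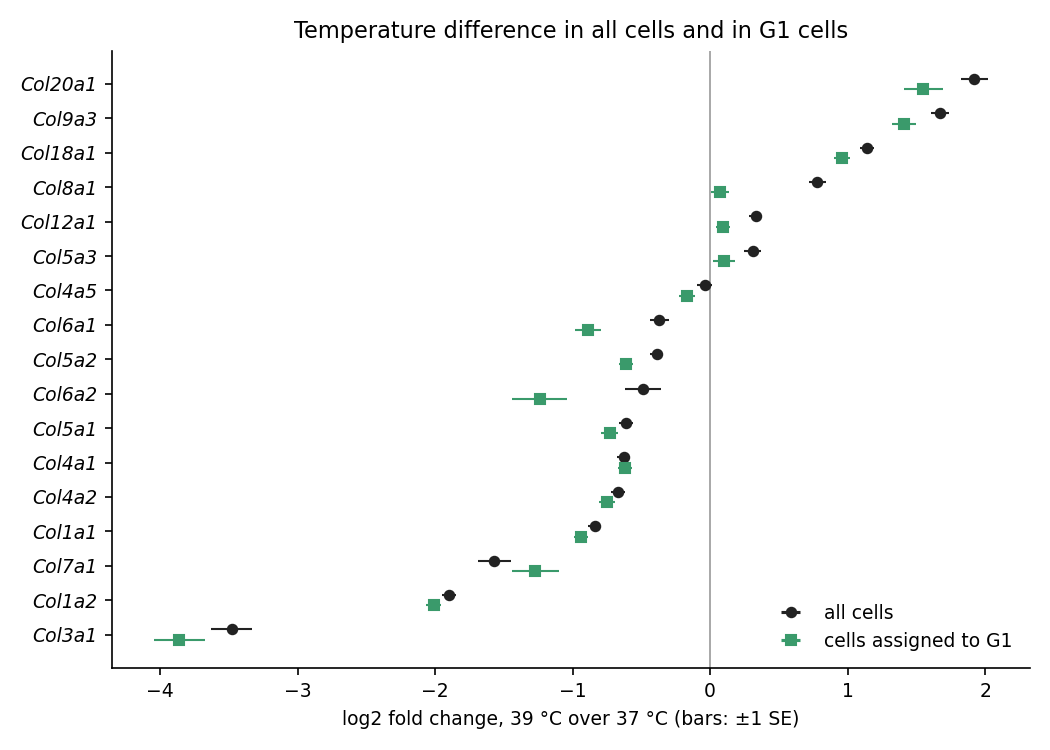
Log2 fold change of 39 °C over 37 °C (x axis, bars ±1 SE of the edgeR test, n = 4 libraries per temperature) for 17 chains, in all cells (circles) and in cells assigned to G1 (squares). Col8a1 lies at 0.78 in all cells and at 0.07 in G1 cells, and Col6a1 and Col6a2 are further below 0 in G1 cells. Among the others, Col12a1 (0.33 and 0.09), Col5a3 (0.31 and 0.10), Col20a1 (1.92 and 1.55) and Col7a1 (-1.57 and -1.27) are nearer 0 in G1 cells. Col3a1 (-3.48 and -3.86) and Col5a2 (-0.39 and -0.61) are further from it.

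To see how the chains differed with phase at a fixed temperature, G1 cells and cells assigned to S or G2M (S/G2M cells) of the same libraries were fitted together, with 16 sums, a term for each library and 14745 genes. At 37 °C, 16 of 29 members were lower in S/G2M cells (55.2%, beside 18.4% of all genes) and 4 were higher (13.8%, beside 25%). At 39 °C, 12 were lower (41.4%, beside 21.1%) and 7 were higher (24.1%, beside 19.2%). S/G2M cells numbered 1253 to 2123 per library at 37 °C and 144 to 610 at 39 °C, so the 39 °C sums are shallower. The names rest on scores of phase genes, so 4 proliferation genes outside the scoring lists were read as a check, without a test. Ccnb1, the mitotic cyclin, was at 8.49 ± 1.66 CPM in G1 and 92.8 ± 2.28 CPM in S/G2M cells at 37 °C (SD, n = 4), and at 4.30 ± 0.569 and 38.1 ± 6.28 CPM at 39 °C (SD, n = 4). Ccna2, the cyclin of S and G2, was at 4.64 and 108 CPM and then 1.12 and 36.1 CPM, Plk1, a mitotic kinase, at 2.86 and 50.2 CPM and then 0.864 and 13.9 CPM, and Mcm3, part of the replicative helicase, at 106 and 250 CPM and then 47.5 and 225 CPM. All 4 were higher in S/G2M cells at both temperatures, and in S/G2M cells their means were lower at 39 °C than at 37 °C, with overlapping libraries for Mcm3. In G1 cells all 4 were also lower at 39 °C, without overlap of libraries. Cells assigned to G1 thus differed between temperatures in these genes. In this fit edgeR pooled the spread over all genes completely (infinite prior degrees of freedom), so its p-values ignore how far a gene's own libraries differ and are too small for genes that vary more. The same design was therefore also fitted with limma-voom (38.8 prior degrees of freedom), an alternative added after the data were seen. It called 19 members at 37 °C and 17 at 39 °C, where edgeR called 20 and 19. The share of all genes that limma-voom called is not given here, so its counts cannot be set against all genes. The log2 differences and p-values for single chains here are those of limma-voom, except where edgeR is named. Differences within a library were taken from its CPM.

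At 37 °C Col8a1 had the largest phase difference of the chains over 20 CPM. It was at 517 ± 54.0 CPM in G1 and 237 ± 16.3 CPM in S/G2M cells at 37 °C (SD, n = 4), and at 544 ± 24.5 and 291 ± 22.3 CPM at 39 °C (SD, n = 4). The log2 difference of S/G2M against G1 cells was -1.07, -1.29, -1.07 and -1.06 in the 37 °C libraries and -0.87, -0.90, -1.06 and -0.79 in the 39 °C libraries (limma-voom adjusted p = 1.20e-33 and 2.62e-26). S/G2M cells held less Col8a1 in all 8 libraries. Col1a1 was also lower in S/G2M cells, with differences of -0.20 at 37 °C and -0.48 at 39 °C (limma-voom adjusted p = 1.03e-15 and 2.15e-22), and so was Col18a1, with -0.34 and -0.67 (limma-voom adjusted p = 7.22e-11 and 1.92e-20). Col12a1 had -0.45 and -0.99 (limma-voom adjusted p = 1.23e-13 and 6.47e-20), Col5a2 -0.30 and -0.11 (limma-voom adjusted p = 4.92e-16 and 0.00145), and Col5a1 -0.19 and -0.31 (limma-voom adjusted p = 1.95e-04 and 2.10e-04). Each of these chains was lower in S/G2M cells in all 8 libraries.

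For 11 of 29 members (37.9%, beside 16.3% of all genes) the temperature difference in S/G2M cells was not the same as that in G1 cells, by the interaction term of the edgeR fit. limma-voom also called 11, with no share of all genes beside it. Col6a1 had log2 differences of S/G2M against G1 cells of -0.50, -0.93, -0.33 and -0.67 at 37 °C and 0.57, 0.13, 0.70 and -0.18 at 39 °C, so 3 of 4 libraries at 39 °C went the other way. The 2 temperatures differed by 0.93 (limma-voom adjusted p = 1.36e-05). Col6a2 had -1.13, -1.37, -0.52 and -0.24 at 37 °C and 1.47, 0.19, 1.07 and 0.03 at 39 °C, and the temperatures differed by 1.59 (limma-voom adjusted p = 2.26e-04). The calls of higher levels in S/G2M cells at 39 °C (edgeR adjusted p = 0.0127 and 0.0154) were lost for both chains without 39 °C replicate 1 (edgeR adjusted p = 0.0934 and 0.144) or without 39 °C replicate 3 (edgeR adjusted p = 0.523 and 0.224), while the calls of the difference between temperatures were not lost in any alternative tried. Col1a1 and Col1a2 differed in sign, with interaction terms of -0.29 (limma-voom adjusted p = 4.65e-11) and 0.28 (limma-voom adjusted p = 3.65e-06). At 39 °C S/G2M cells held less Col1a1 than G1 cells (432 and 605 CPM) and slightly more Col1a2 (205 and 179 CPM). The type IV pair had interaction terms of 0.23 for Col4a1 and 0.38 for Col4a2 (limma-voom adjusted p = 0.00300 and 4.02e-05), with 119 CPM of Col4a1 in S/G2M and 95.3 CPM in G1 cells at 39 °C.

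**Figure D5:**
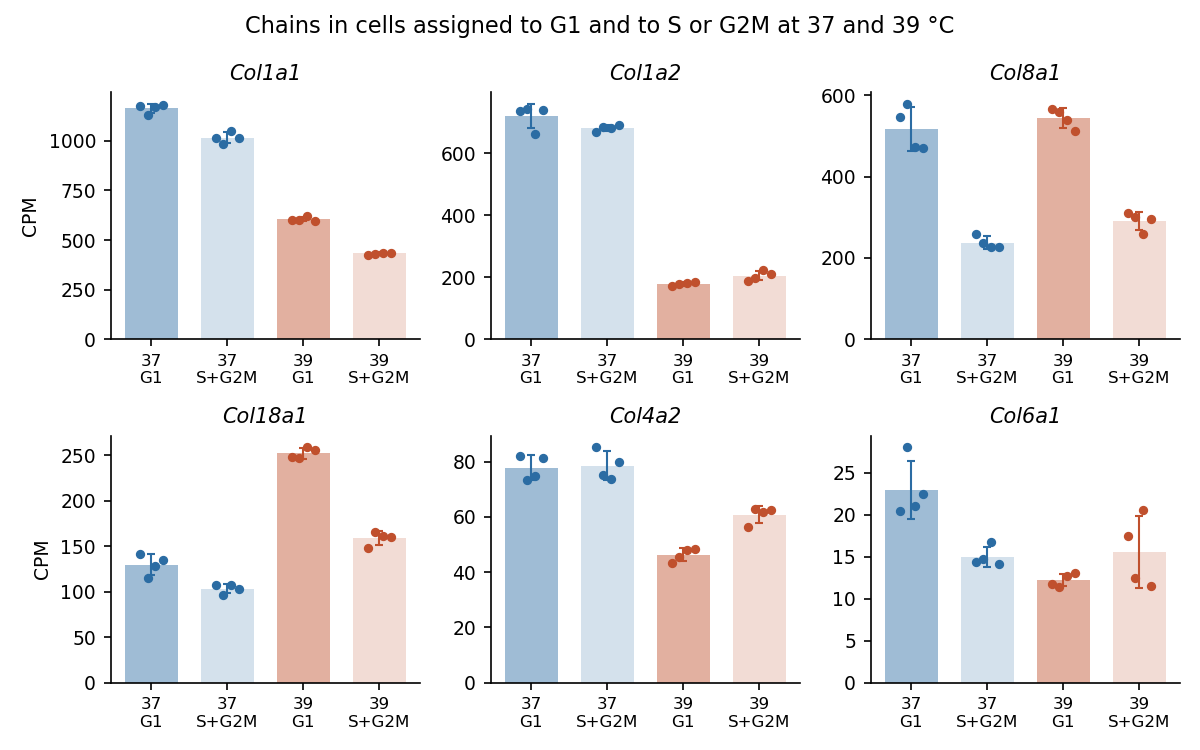
CPM (y axis, from 0) of 6 chains in cells assigned to G1 and in cells assigned to S or G2M at 37 °C and 39 °C (x axis). Bars are means, error bars SD and points libraries (n = 4). Col8a1 differs by phase at both temperatures (517 and 237 CPM, 544 and 291 CPM) and Col1a2 mainly by temperature. Col6a1 is lower in S or G2M cells in all 4 libraries at 37 °C. At 39 °C its log2 differences of S or G2M against G1 cells are 0.57, 0.13, 0.70 and -0.18, so the libraries differ in direction.

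Genes that modify, move, cut, link and bind collagens were described from a list of 73, of which 62 were tested. In all cells 31 fell (50%, beside 30.5% of all genes tested) and 10 rose (16.1%, beside 31.5%), with a median log2 fold change of -0.18 beside 0.02 for all genes. Of 18 tested folding and hydroxylation genes, 12 fell (66.7%) and 2 rose (11.1%). Among the falls were Fkbp10, a collagen prolyl isomerase (59.0 ± 2.18 to 39.1 ± 0.728 CPM, -0.59, adjusted p = 9.32e-10), and P4hb, a subunit of prolyl 4-hydroxylase (268 ± 5.94 to 181 ± 8.33 CPM, -0.56, adjusted p = 3.77e-09). The rises in this group were Plod2, a lysyl hydroxylase (82.7 ± 5.30 to 130 ± 9.06 CPM, 0.64, adjusted p = 6.21e-09), and Tmem38b (6.79 ± 0.501 to 8.84 ± 0.551 CPM, 0.38, adjusted p = 3.97e-04), whose rise was not called in G1 cells (0.08, adjusted p = 0.572). Of the 6 crosslinking genes, 5 fell (83.3%) and none rose: Lox, a lysyl oxidase, went from 71.2 ± 5.97 to 34.3 ± 6.20 CPM (-1.04, adjusted p = 6.10e-09), and the other 4 were Loxl1, Loxl2, Loxl3 and Loxl4. Values for the list are means ± SD (n = 4), log2 fold changes and adjusted p-values of the edgeR test in all cells.

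Secretion genes mostly had no call (5 of 8), with falls of the coat proteins Sec24d (-0.97, adjusted p = 1.41e-07) and Sec13 (-0.55, adjusted p = 1.46e-08) and a rise of Klhl12 (0.39, adjusted p = 2.81e-05), an adaptor for large procollagen carriers. Of 6 propeptide cleavage genes, 3 fell and 2 rose (50% and 33.3%, beside 30.5% and 31.5% of all genes). The enhancer Pcolce went from 490 ± 33.9 to 296 ± 15.4 CPM (-0.73, adjusted p = 1.43e-09), while the protease Bmp1 rose from 40.7 ± 1.81 to 60.2 ± 2.38 CPM (0.56, adjusted p = 5.11e-09) and Pcolce2 from 11.6 ± 0.976 to 17.2 ± 2.97 CPM (0.58, adjusted p = 2.78e-05). In fibril assembly, 2 of 7 fell and 2 rose (28.6% each, near the shares of all genes). The collagen-binding glycoprotein Sparc went from 3865 ± 106 to 2522 ± 97.6 CPM (-0.62, adjusted p = 1.40e-08) and Fbln1 from 12.2 ± 0.889 to 6.55 ± 0.702 CPM (-0.88, adjusted p = 1.65e-08), whereas the proteoglycan Bgn rose from 881 ± 34.0 to 1266 ± 53.5 CPM (0.52, adjusted p = 6.80e-08) and Fn1, fibronectin, from 229 ± 5.92 to 264 ± 17.1 CPM (0.21, adjusted p = 0.00142). The rise of Fn1 was not called in G1 cells (0.00, adjusted p = 0.957).

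Of 9 tested receptors 3 fell and 2 rose (33.3% and 22.2%, near the 30.5% and 31.5% of all genes). Itga2, the α subunit of a collagen-binding integrin, rose from 3.80 ± 0.844 to 14.0 ± 1.57 CPM (1.88, adjusted p = 5.89e-11) and the receptor kinase Ddr1 from 31.0 ± 1.38 to 53.3 ± 1.68 CPM (0.78, adjusted p = 3.90e-11), while Itgb1 fell from 386 ± 17.3 to 316 ± 15.1 CPM (-0.29, adjusted p = 6.76e-05). The other kinase of that family, Ddr2, fell from 5.68 ± 0.247 to 1.91 ± 0.197 CPM (-1.55, adjusted p = 2.25e-10, edgeR). Among 8 breakdown genes, 4 fell and 1 rose (50% and 12.5%): Mmp15, a membrane-bound metalloproteinase, went from 17.0 ± 1.73 to 60.6 ± 3.35 CPM (1.83, adjusted p = 9.85e-15), and the peptidases Prep (-0.50, adjusted p = 4.93e-08) and Pepd (-0.28, adjusted p = 0.00510) fell.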

How the data were processed

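Cells of the mouse line SN4741 were profiled in 8 droplet libraries (Chromium 3' V3), 4 at 37 °C and 4 at 39 °C, grouped by the labels. Per the labels' processing notes, the authors used Cell Ranger 3.0.1 and mm10 (the same assembly as GRCm38), and deposited raw UMI counts per gene and cell. With the study's limits, cells were dropped for mitochondrial UMIs over 15% (334 cells), more than 6000 genes (440) or fewer than 200 (29), and 1 cell can fail several. No doublet caller was run. Phases came from Seurat 5.3.0 (CellCycleScoring on all kept cells together).

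Counts were summed per library over all kept cells, over G1 cells, or over G1 and S/G2M cells (16 sums, with a term per library). Genes averaging 1 count or more per sum were tested with edgeR 4.0.16 (R 4.3.3: TMM, glmQLFit, glmQLFTest) and adjusted by Benjamini-Hochberg over all of them. SE was taken as the absolute log2 fold change over the root of the F statistic. The CPM of single genes use TMM-scaled totals, those of class sums, marker genes and marker sums plain totals. The phase fit was also run with limma 3.58.1 (voom). Replicate numbers did not pair the libraries. Shares, ratios and sums over members have no test. Positions are from GENCODE M21 and upstream sequences from RefSeq (GRCm38.p6).

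Per-library values were given for members of 20 CPM or more on average, and for those past the size limit that reached 2 CPM in a group. Of the processing list, up to 2 genes per role and direction of 10 CPM or more were named. Per-library values of Col8a2 and of Col6a1 in G1 cells, the names Tmem38b, Ddr2 and Loxl1 to Loxl4, and the 4 proliferation genes, were added after their values were seen. The members, classes, lists and rules were chosen with earlier results of these data known. The alternatives were other scaling, filters on genes and cells, DESeq2 1.42.0, a replicate block, leaving out single libraries, updated phase lists and another thinning depth.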

Additional observations from a re-analysis of the deposited data

Results flagged for a closer look

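In 46 groups of 4 libraries (single chains and class sums), 1 library stood apart from the others: Col5a2 in 37 °C replicate 1, at 515 CPM where the other 3 libraries held 493 to 495 CPM. Its gap to the next library was 0.892 of the range of the 4, above the 95% limit of Dixon's test. Chance alone gives about 1 such flag in 20 groups, so 1 flag in 46 groups is no more than chance gives.

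The temperature difference differed between S/G2M and G1 cells for 11 members (interaction term of the edgeR fit, log2 difference in S/G2M minus that in G1 cells). It was positive for Col6a2 (1.53), Col6a1 (0.92), Col4a2 (0.38), Col1a2 (0.28), Col4a1 (0.22), Col8a1 (0.22, limma-voom adjusted p = 3.53e-04) and Col5a2 (0.18, limma-voom adjusted p = 2.48e-04). Negative values were found for Col12a1 (-0.54, limma-voom adjusted p = 4.85e-08), Col18a1 (-0.33, limma-voom adjusted p = 3.69e-06) and Col1a1 (-0.29). Col15a1 had the highest value (1.78, SE 0.598, edgeR adjusted p = 0.0224) at 0.482 to 1.39 CPM, and lost the call without any of 5 single libraries (37 °C replicates 2 and 4, 39 °C replicates 1, 3 and 4; adjusted p from 0.0590 to 0.202). limma-voom gave 1.59 for Col6a2, 0.93 for Col6a1, 0.23 for Col4a1 and 1.89 for Col15a1, and the same values to 2 decimals for the others.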

How the results depend on the processing

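The numbers of members higher and lower in all cells were 8 to 9 and 13 to 14 under 17 alternatives, and leaving out single libraries gave 8 to 9 and 13. Of all 15810 genes tested, 4976 were higher and 4827 lower in the main fit. With library totals only these were 5270 and 4562, with DESeq2 4430 and 4643, and with a replicate block 4880 and 4737. Among the members only Col27a1 lost its call under the alternatives in all cells, among others without 37 °C replicate 2, 3 or 4 or 39 °C replicate 2, 3 or 4. Past the size limit, Col7a1 dropped out without 39 °C replicate 3 (-1.46) and Col8a2 dropped out with no cell filter (-1.46) and with no upper limit on genes (-1.43). With the replicate number as a block (replicate block), 9 members were higher and 13 lower in all cells, and 4 and 13 in G1 cells, where Col11a1 lost its call (adjusted p = 0.0563) and Col16a1 gained one (adjusted p = 0.0301). Same-numbered libraries did not deviate together (correlations of -0.11, -0.09, -0.08 and 0.22), so the numbers were not taken to pair them. The collagen share of UMIs at 39 °C was 0.235%, 0.241% with no cell filter and 0.245% with mitochondrial shares up to 10%. Of shares of cells, 8 members were higher at 39 °C without overlap, but 4 with cells thinned to 2000 UMIs and 3 with no thinning. The shares of all genes at those depths are not given here, so these counts are not read as a result about collagens. With no thinning, Col5a3 (-0.146 percentage points) and Col12a1 (-5.93) turned direction. Unthinned shares also carry depth. At 39 °C the median UMIs per cell of replicates 2 and 4 (8586 and 6676) were below those of every 37 °C library. Replicate 3 (9886) was within the 37 °C range of 9839 to 15413, and replicate 1 (16665) was above it. Calls between G1 and S/G2M cells were less stable: 9 members at 37 °C and 8 at 39 °C lost a call in at least 1 of 12 alternatives, among them Col1a2 at 37 °C without 37 °C replicate 1 (adjusted p = 0.0903) and Col3a1 at 39 °C without 39 °C replicate 4 (adjusted p = 0.122, edgeR). limma-voom, added after the data were seen, lost Col2a1 at 37 °C and Col9a3, Col16a1 and Col5a3 at 39 °C, and gained Col6a3 at 39 °C (1.34, adjusted p = 0.0353). With no filter on low counts, 10 of the 12 members under 1 count per library were also fitted, and 1 was called, Col9a2 (-3.62, adjusted p = 0.0353, edgeR), with 6 UMIs at 37 °C and 0 at 39 °C. That fit pooled the spread over genes much more (190 prior degrees of freedom, against 12.5).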

Other observations

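The cells in which Col3a1 was still found at 39 °C were few: 7, 23, 29 and 26 cells in the 4 libraries, of 985, 2743, 2579 and 3494. In them Col1a1 was at 1209, 1192, 1197 and 1331 CPM, and in the other cells of the same libraries at 584, 562, 585 and 562 CPM. At 37 °C the cells with a Col3a1 UMI numbered 215 to 252 per library and held 1265 to 1452 CPM of Col1a1, against 897 to 989 CPM in the rest. These cells were also deeper than all cells of their library (at 39 °C, median UMIs of 11566 to 17490 against 6676 to 16665), and both genes were read from the same cells, so the values are a description with no test. At 39 °C between 87.0% and 100% of them were assigned to G1, where 82.5% to 85.4% of all cells were.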
